A study of Mus musculus with 4 samples.

Results

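The 8 genes of the type 2 alarmin pathway were read from the skin RNA sequence analysis by their gene symbols, and all 8 were found among the 24346 symbols of each file. They are *Il33*, *Tslp* and *Il7*, which encode secreted signals, *Il1rl1* and *Crlf2*, which encode the specific receptor chains of IL-33 and TSLP, and *Il4ra*, *Il13ra1* and *Il13ra2*, which encode the chains that bind IL-4 and IL-13. They were taken by symbol as members of 1 pathway, with earlier results of these data known. Adult male C57BL/6 mice received a high-fat, high-cholesterol, high-sucrose diet with bile salt (NASH diet) for 3 weeks, either without 7-ketocholesterol (Cont-IMQ group, n = 2) or with it (7KC-IMQ group, n = 2), and then imiquimod (IMQ) cream on the back for 1 day. All 4 libraries were from IMQ-treated dorsal skin of NASH diet-fed wild type mice, so no library shows the skin before IMQ or on a normal diet. 7-Ketocholesterol (7KC) is an oxidized form of cholesterol, and IMQ is an agonist of Toll-like receptor 7 that induces a psoriasis-like dermatitis in mice.

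Alarmins are cytokines that epithelial and stromal cells release when a barrier is damaged. IL-33 is held in the nucleus and, once released, binds ST2, the product of *Il1rl1*, together with the IL-1 receptor accessory protein, and signals through MyD88. TSLP binds CRLF2 together with the IL-7 receptor alpha chain, which IL-7 uses as well. Both act on mast cells, innate lymphoid cells, T cells and dendritic cells and lead to the production of IL-4 and IL-13, which signal through IL-4 receptor alpha and STAT6. In the skin these signals are known mainly from atopic dermatitis, whereas IMQ-induced dermatitis is known for IL-23 and IL-17.

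Values are listed in the order replicate 1, replicate 2 of a group, and "without 7KC" and "with 7KC" stand for the libraries of the Cont-IMQ group and of the 7KC-IMQ group. The level of each gene is given as FPKM, which divides the fragments of a gene by its exon length and by the depth of the library, so that levels of different genes can be set beside each other. The mean log2 level was higher with 7KC in 7 of the 8 genes, against 48.7% of all genes tested. In 5 of the 8, each library with 7KC exceeded each library without it (*Il33*, *Il4ra*, *Il13ra2*, *Il13ra1* and *Crlf2*), and none was lower in this way. Over all 15896 genes tested, 23.9% were higher without overlap between the groups and 22.9% were lower. *Tslp*, *Il7* and *Il1rl1* overlapped between the groups. The groups were compared on log2(FPKM + 1) by limma across all genes tested, and none of the 8 genes passed an adjusted p-value of 0.05 (range 0.352 to 0.910). Over all genes, 1 passed (0.00629%). At an unadjusted p-value under 0.05, *Il33*, *Il4ra* and *Il13ra2* were higher, that is 3 of 8 genes, where 7.5% of all genes tested (1192) were called higher and 5.47% (869) lower. After scaling each library to the same sum of FPKM, 638 genes were called higher and 1229 lower, and the same 3 genes were called higher. Without 7KC-IMQ replicate 2, *Il4ra* was the only one of the 8 called (unadjusted p = 0.0180 in limma), as *Il33* had an unadjusted p of 0.0539 and *Il13ra2* one of 0.0558. *Il33* was also not called without Cont-IMQ replicate 2 (unadjusted p = 0.109 in limma) or with no filter on low values (0.0788). The median log2 fold change of the 8 genes was 0.265, against -0.00559 over all genes tested. With 2 libraries a group, the smallest two-sided p-value of an exact permutation test is 0.333, and none was run. The libraries are of bulk skin, in which fewer cells of a type and less RNA per cell cannot be told apart.

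**Figure D1:**
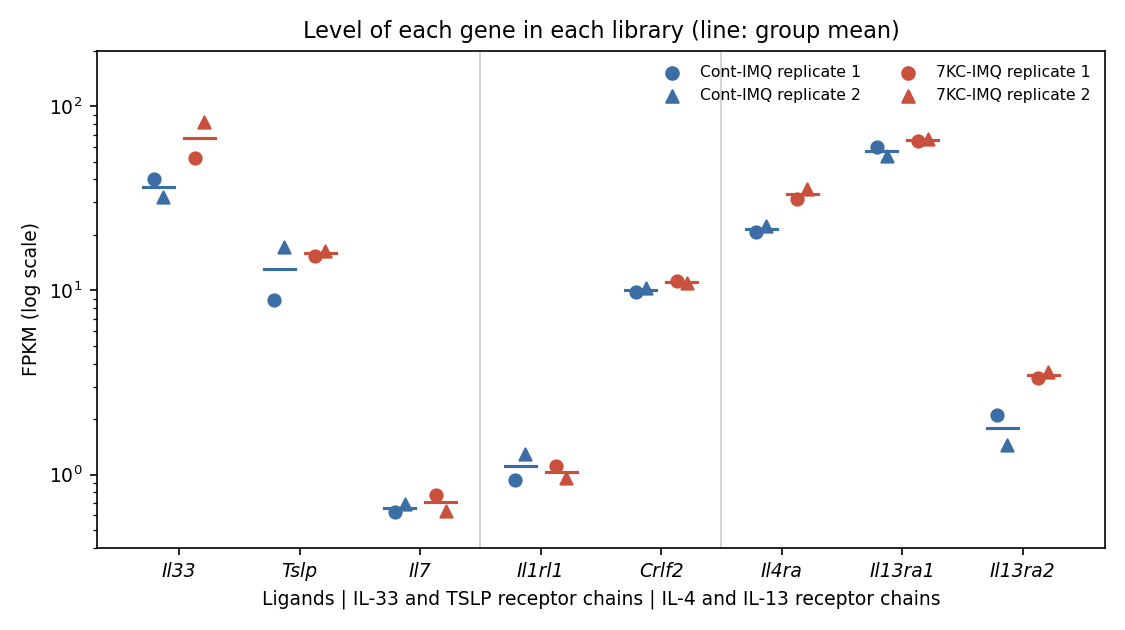
FPKM (log axis) of the 8 genes in the 2 Cont-IMQ (blue) and the 2 7KC-IMQ (red) libraries, with circles for replicate 1, triangles for replicate 2 and a line at each group mean. The red symbols of *Il33*, *Il4ra* and *Il13ra2* lie clearly above the blue ones, while *Tslp* has 1 low blue symbol at 8.86 FPKM.

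The order of the 8 levels was nearly the same in all libraries. *Il13ra1* and *Il33* were the most abundant, with mean levels over the 4 libraries of 61.2 and 51.6 FPKM, and they exchanged places in 7KC-IMQ replicate 2. *Il4ra* followed at a mean level of 27.4 FPKM. *Tslp* at 14.5 FPKM and *Crlf2* at 10.5 FPKM exchanged places in Cont-IMQ replicate 1. *Il13ra2* (2.64 FPKM), *Il1rl1* (1.07 FPKM) and *Il7* (0.684 FPKM) came last, in this order in every library.

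*Il33* (ENSMUSG00000024810.16) lies on chromosome 19 of GRCm38, the assembly also called mm10, from 29925114 to 29960718 on the plus strand. It had 40.1 and 32.3 FPKM without 7KC, and 52.3 and 81.8 FPKM with 7KC. The groups did not overlap, and 7KC-IMQ replicate 2 was by far the highest of the 4. The mean level was 36.2 ± 5.49 FPKM (SD, n = 2) without 7KC and 67.0 ± 20.8 FPKM (SD, n = 2) with 7KC, a ratio of 1.85. The log2 fold change was 0.84 (SE 0.24, where SE is the standard error, 95% interval 0.21 to 1.48, adjusted p = 0.356 in limma), which is above that of 99.2% of the genes tested. Without 7KC-IMQ replicate 2 it was 0.53, and it was 1.16 without 7KC-IMQ replicate 1. The number of reads behind these levels was estimated as between 1143 and 2876 per library, so that counting error is small beside the spread between replicates. No sequence of 75 bases in its transcripts occurs in another annotated gene. The 3 genes whose levels followed the same pattern most closely over the 4 libraries, by the distance between centered log2 values, were *Pla2g4d*, *Cdhr1* and *Lce3c*. They are the nearest of 13109 genes. Over only 4 values some genes lie near by necessity, so nearness describes the pattern and no shared control was tested. *Pla2g4d* encodes a cytosolic phospholipase A2, and *Lce3c* encodes a late cornified envelope protein. *Lce3c* had 79.5 and 56.8 FPKM without 7KC, and 96.4 and 152 FPKM with 7KC.

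*Il33* has a pair of start sites in RefSeq (GRCm38.p6), and both promoters are shown because the deposited level sums transcripts from both and cannot tell them apart. Each sequence is of the plus strand of chromosome 19 and runs from 250 bases before the start site to 50 bases from it. The first covers chr19:29924863-29925162 and the second chr19:29945540-29945839. Capitals mark matches on either strand to 4 motifs, the STAT motif with a spacer of 3 bases (TTCNNNGAA) or of 4 bases (TTCNNNNGAA, the spacing preferred by STAT6), the AP-1 motif (TGANTCA) and the NF-kB consensus.
*Il33* first start: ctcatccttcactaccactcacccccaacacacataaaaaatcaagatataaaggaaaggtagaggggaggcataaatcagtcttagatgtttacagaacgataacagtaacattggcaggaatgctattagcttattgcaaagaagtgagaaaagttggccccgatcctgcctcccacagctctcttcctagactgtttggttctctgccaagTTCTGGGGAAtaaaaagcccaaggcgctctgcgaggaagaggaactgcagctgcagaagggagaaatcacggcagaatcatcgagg
*Il33* second start: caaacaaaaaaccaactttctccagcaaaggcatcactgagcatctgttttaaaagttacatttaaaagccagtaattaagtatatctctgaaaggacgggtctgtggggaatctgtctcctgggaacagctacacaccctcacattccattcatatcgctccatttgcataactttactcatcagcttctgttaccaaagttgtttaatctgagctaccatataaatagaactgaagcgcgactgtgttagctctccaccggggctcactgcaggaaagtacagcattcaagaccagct
The first promoter held 1 match, to the STAT motif with a spacer of 4 bases, from base -36 to base -27 with the start site counted as 1. Such a match was found in 6.95% of the 32851 mouse promoters of the same length. None of the 4 motifs was found in the second. A match describes the letters only.

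*Tslp* (ENSMUSG00000024379.4, chromosome 18 from 32815383 to 32819797) had 8.86 and 17.3 FPKM without 7KC, and 15.4 and 16.4 FPKM with 7KC. Cont-IMQ replicate 1 was low, and the other Cont-IMQ library was the highest of all, so the groups overlapped. The mean level was 13.1 ± 5.94 FPKM without 7KC, and 15.9 ± 0.725 FPKM with 7KC (SD, n = 2 each). Its log2 fold change was 0.33 (SE 0.30, 95% interval -0.47 to 1.13, adjusted p = 0.682 in limma), and its direction rested on 1 library, as it was -0.11 without Cont-IMQ replicate 1 and 0.78 without Cont-IMQ replicate 2. The low library held an estimated 125 or 126 reads and the others between 228 and 244 reads. The same library was the lowest in 8 hair follicle genes, whose summed level was 107.7 and 1397 FPKM without 7KC, and 411 and 362 FPKM with 7KC, and their part in the *Tslp* level was not tested. The genes nearest to *Tslp* in pattern were *Hsph1*, which encodes a heat shock protein, *Wdr92*, and *Fkbp5*, a glucocorticoid-responsive gene. The limit given for the genes nearest to *Il33* holds here too. *Hsph1* had 20.7 and 37.4 FPKM without 7KC, and 33.3 and 36.4 FPKM with 7KC.

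*Il7* (ENSMUSG00000040329.14, chromosome 3 from 7569994 to 7613760), which encodes a growth factor of lymphocytes that keratinocytes also make, was the least abundant of the 8 genes. Its level was 0.629 and 0.693 FPKM without 7KC, and 0.775 and 0.638 FPKM with 7KC. The 4 values overlapped, with a log2 fold change of 0.04 (95% interval -0.25 to 0.32 in limma, adjusted p = 0.910). Depending on which transcript is taken, these levels correspond to between 15 and 59 reads per library, which limits what can be told from them. An antisense gene, *Gm16685*, overlaps its exons, and how strand was treated in the counting is not given in the sources used here. *Gm16685* was not among the symbols read.

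Of the receptor chains of the alarmins, *Crlf2* (ENSMUSG00000033467.12, chromosome 5 from 109554709 to 109558993) had 9.76 and 10.2 FPKM without 7KC, and 11.2 and 11.0 FPKM with 7KC. The groups did not overlap, but the difference was small, with a log2 fold change of 0.14 (SE 0.09, 95% interval -0.09 to 0.36, adjusted p = 0.553 in limma). After scaling each library to the same sum of FPKM the groups overlapped and the log2 fold change was 0.06. *Il1rl1* (ENSMUSG00000026069.15, chromosome 1 from 40429570 to 40465415) had 0.932 and 1.29 FPKM without 7KC, and 1.11 and 0.959 FPKM with 7KC. The 7KC-IMQ values lay between the Cont-IMQ values. The log2 fold change of *Il1rl1* was -0.05 (95% interval -0.40 to 0.30, adjusted p = 0.902 in limma), and its sign turned when Cont-IMQ replicate 2 or 7KC-IMQ replicate 2 was left out. This gene gives rise to membrane-bound ST2 and to a shorter, soluble form that captures IL-33, and the deposited level is 1 value for both. The 3 transcripts that match RefSeq span 1216 to 5302 bases, so that between 14 and 100 reads per library stand behind it. Within each library, the level of *Il33* was 43.03 and 25.04 times that of *Il1rl1* without 7KC, and 47.28 and 85.24 times with 7KC.

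ST2 is found on mast cells, innate lymphoid cells and some T cells, and their marker genes are given beside it. The summed level of 9 mast cell genes was 110.6 and 110.5 FPKM without 7KC, and 94.4 and 98.9 FPKM with 7KC, and none of the genes was listed at 0 in all libraries. That of 8 genes of T cells and innate lymphoid cells was 86.9 and 73.0 FPKM against 66.9 and 51.5 FPKM. The most abundant of the list, which made the larger part of the sum, were *Gata3* (39.6 and 32.1 FPKM against 32.6 and 19.2 FPKM) and *Rora* (29.7 and 25.2 FPKM against 20.2 and 20.4 FPKM). The 8 genes did not move together. The mean log2 level was higher with 7KC in 3 (*Icos*, *Il2ra* and *Cd3d*) and lower in 5. Without overlap, 1 was higher (*Cd3d*, log2 fold change 0.04) and 3 were lower, against 23.9% and 22.9% of all genes tested. The 3 lower genes were *Cd3g* (log2 fold change -0.53), *Rora* (-0.415) and *Cd3e* (-0.36). Their unadjusted p-values in limma were 0.0223, 0.0118 and 0.0407, and 5.47% of all genes tested were called lower by that threshold. None of the 8 was called higher, and none passed the adjusted threshold (smallest adjusted p = 0.356). Keratinocytes and hair follicles also express *Gata3*. Their part in the *Il1rl1* level was not tested.

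The 3 chains that bind IL-4 and IL-13 were each higher with 7KC without overlap, as were 23.9% of all genes tested. *Il4ra* (ENSMUSG00000030748.9, chromosome 7 from 125552120 to 125579474), which encodes the chain shared by the receptors of both cytokines, had 20.6 and 22.3 FPKM without 7KC, and 31.3 and 35.5 FPKM with 7KC. Each group was tight and the groups lay far apart. The mean level was 21.4 ± 1.14 FPKM against 33.4 ± 2.96 FPKM (SD, n = 2 each), a ratio of 1.56. On the log2 scale the difference was 0.61 (SE 0.10, 95% interval 0.36 to 0.87, adjusted p = 0.352 in limma), higher than in 98.5% of the genes tested, and it stayed between 0.53 and 0.70 when any 1 library was left out. An estimated 1588 to 2692 reads per library stand behind these levels. An antisense gene, *Gm44876*, shares 7.95% of the 75-base windows of *Il4ra*. It was not among the symbols read, so it has no level of its own here.

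*Il13ra2* (ENSMUSG00000031289.10, chromosome X from 147383476 to 147429192) encodes a chain that binds IL-13 tightly, lacks a long signaling tail and is mostly described as a decoy. It had 2.12 and 1.45 FPKM without 7KC, and 3.36 and 3.62 FPKM with 7KC. The lower 7KC-IMQ library stood well above the higher Cont-IMQ library. The mean level was 1.78 ± 0.472 FPKM against 3.49 ± 0.190 FPKM (SD, n = 2 each), a ratio of 1.96, the largest of the 8 genes. This gave a log2 fold change of 0.70 (SE 0.16, 95% interval 0.29 to 1.11, adjusted p = 0.354 in limma), and with a pseudocount of 0.1 in place of 1 it was 0.95, since the pseudocount shrinks the change of low genes. The estimated reads were 67 and 46 in the Cont-IMQ libraries and 114 and 113 in the 7KC-IMQ libraries.

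*Il13ra1* (ENSMUSG00000017057.9, chromosome X from 36112110 to 36171259) encodes the chain that pairs with IL-4 receptor alpha on keratinocytes and fibroblasts. Its level was 60.3 and 53.5 FPKM without 7KC, and 64.5 and 66.3 FPKM with 7KC. The groups did not overlap, but the gap between them was smaller than the spread within the Cont-IMQ group. Its log2 fold change was 0.20 (SE 0.09, 95% interval -0.03 to 0.43, adjusted p = 0.434 in limma) and fell to 0.11 without Cont-IMQ replicate 2 and to 0.12 after scaling to the same sum of FPKM. Within each library, the level of *Il13ra2* was 0.0351 and 0.0271 of that of *Il13ra1* without 7KC, and 0.0520 and 0.0547 with 7KC. The level of *Il4ra* was 0.342 and 0.416 of that of *Il13ra1* without 7KC, and 0.486 and 0.536 with 7KC. Both ratios were thus higher in each 7KC-IMQ library than in either Cont-IMQ library. They follow from the levels of *Il13ra2* and *Il4ra* given above. Of the other ratios taken, those of *Il33* to *Il1rl1* and of *Crlf2* to *Il7r* were higher in this way. Those of *Tslp* to *Crlf2*, of *Il33* to *Tslp* and of *Il1rl1* to *Il1rap* overlapped. The share of all gene pairs that separate in this way was not computed.

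**Figure D2:**
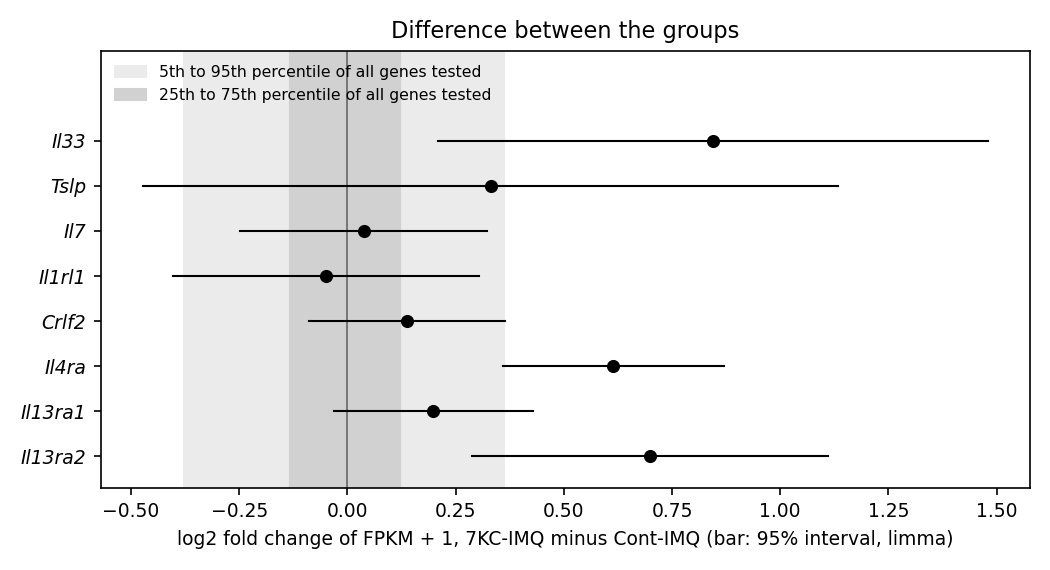
Log2 fold change of FPKM + 1 (7KC-IMQ minus Cont-IMQ) of the 8 genes, with 95% intervals from limma, over grey bands for the middle of all 15896 genes tested. The intervals of *Il33*, *Il4ra* and *Il13ra2* lie above 0, and those of the other 5 genes include 0.

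The promoters of *Il4ra* and *Il13ra2* are shown beside that of *Il33* since these 3 genes had the largest differences of the 8. They are from the RefSeq promoters (GRCm38.p6), which matched 6 of the 8 genes (not *Tslp* and *Il7*), and cover chr7:125552021-125552320 (plus strand) and chrX:147429143-147429442 (minus strand). Capitals mark matches to the same 4 motifs.
*Il4ra*: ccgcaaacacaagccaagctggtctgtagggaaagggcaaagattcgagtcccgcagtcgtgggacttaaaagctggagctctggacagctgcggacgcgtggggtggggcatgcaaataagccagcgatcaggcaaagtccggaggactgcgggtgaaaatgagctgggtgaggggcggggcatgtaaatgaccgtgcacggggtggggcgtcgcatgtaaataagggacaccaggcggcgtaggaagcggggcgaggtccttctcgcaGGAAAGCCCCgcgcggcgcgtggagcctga
*Il13ra2*: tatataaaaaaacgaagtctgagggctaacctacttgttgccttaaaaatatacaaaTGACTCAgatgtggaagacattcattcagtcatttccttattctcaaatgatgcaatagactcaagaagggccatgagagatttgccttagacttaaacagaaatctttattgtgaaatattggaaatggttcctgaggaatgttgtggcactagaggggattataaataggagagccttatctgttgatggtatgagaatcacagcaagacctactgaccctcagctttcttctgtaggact
*Il4ra* held 1 match to the NF-kB consensus on the opposite strand, from base 21 to base 30, as did 5.80% of all promoters. *Il13ra2* held 1 match to the AP-1 motif, from base -193 to base -187, which 7.81% of all promoters hold. The STAT motif with a spacer of 3 bases, present in 8.30% of all promoters, was in none of the promoters searched. The 3 promoters differed in composition, with 46.3% of G and C in the first promoter of *Il33*, 62.0% in that of *Il4ra* and 37.7% in that of *Il13ra2*. The promoters of *Crlf2*, *Il13ra1* and *Il1rl1* held none of the 4 motifs. The matches of *Il33*, *Il4ra* and *Il13ra2* were each to a different motif. The share of all promoters with any of the 4 motifs was not computed. A link between matches and differences in level was not tested.

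The 8 genes were next set beside the other parts of the pathway. The 7 lists hold 54 genes, of which 46 reached a mean of 0.1 FPKM and were tested. None passed an adjusted p-value of 0.05 (limma, range 0.331 to 0.996). At an unadjusted p-value under 0.05, 7 were higher and 3 lower, and 11 were higher and 6 lower without overlap. These shares lie near or below those over all genes, except for the genes higher at an unadjusted p-value (7.5% over all genes). The median log2 fold change was 0.06.

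Of the 4 chains that pair with or modulate the alarmin receptors, none was called. *Il1rap*, the partner of ST2, had 13.0 and 11.3 FPKM without 7KC, and 13.4 and 14.2 FPKM with 7KC, without overlap and with a log2 fold change of 0.17 (adjusted p = 0.534 in limma). *Il7r*, the partner of CRLF2 and of the IL-7 receptor, had 2.33 and 2.11 FPKM against 2.18 and 2.01 FPKM, and *Il2rg*, the common gamma chain, had 17.3 and 13.3 FPKM against 16.0 and 15.2 FPKM. The transcripts of the cytokines themselves were close to the limit of detection. *Il4* was listed at 0 in Cont-IMQ replicate 1 and 7KC-IMQ replicate 2 and had 0.335 and 0.318 FPKM in the others. *Il13* was listed at 0 in Cont-IMQ replicate 2, and had 0.261 FPKM in Cont-IMQ replicate 1 and 0.183 and 0.132 FPKM with 7KC. Of 7 type 2 cytokine genes, 3 reached the mean of 0.1 FPKM and 4 (*Il5*, *Il9*, *Il31* and *Il3*) did not, so a difference in them was not detectable at this depth.

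Of 6 receptor genes of other type 2 cytokines, 4 were tested. Without overlap, 2 were higher and 1 lower, against 23.9% and 22.9% of all genes tested. *Osmr*, which encodes the oncostatin M receptor and the partner chain of the IL-31 receptor, had 15.6 and 15.8 FPKM without 7KC, and 23.1 and 24.3 FPKM with 7KC (log2 fold change 0.56, adjusted p = 0.331 in limma). *Il31ra*, the other chain of that receptor, had 4.62 and 4.22 FPKM against 3.64 and 2.79 FPKM (log2 fold change -0.37, adjusted p = 0.390 in limma). The 2 chains of 1 receptor thus lay in opposite directions, neither past the adjusted threshold. *Csf2rb*, the shared chain of the IL-3, IL-5 and GM-CSF receptors, had 7.92 and 7.03 FPKM against 9.86 and 8.57 FPKM.

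Among 8 JAK and STAT genes, 3 were higher and 2 lower without overlap, against 23.9% and 22.9% of all genes tested. *Stat6*, which carries the signal of IL-4 and IL-13, had 39.9 and 39.6 FPKM without 7KC, and 41.6 and 40.6 FPKM with 7KC, a log2 fold change of 0.05 (95% interval -0.13 to 0.23 in limma). *Stat5b*, used by TSLP and IL-7 signaling, had 13.4 and 14.4 FPKM against 12.0 and 12.2 FPKM. *Jak2*, which binds CRLF2, had 14.4 and 14.1 FPKM against 17.3 and 15.7 FPKM, and *Tyk2* had 9.78 and 9.40 FPKM against 8.96 and 8.15 FPKM. *Stat3* was called higher at an unadjusted p-value, with a log2 fold change of 0.42 (adjusted p = 0.356 in limma). Of 6 adaptor genes of the IL-33 receptor, *Myd88* alone was higher without overlap, against 23.9% of all genes tested. It had 53.9 and 49.8 FPKM without 7KC, and 70.5 and 67.8 FPKM with 7KC (log2 fold change 0.41, adjusted p = 0.352 in limma). The other adaptor genes overlapped. MyD88 also serves Toll-like receptors and the IL-1 receptor.

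The genes that IL-4 and IL-13 are known to induce went in both directions. Of 17 genes 15 were tested, and the mean log2 level was higher with 7KC in 10 and lower in 5. Without overlap, 1 was higher and 2 were lower, against 23.9% and 22.9% of all genes tested. The median log2 fold change was 0.08. *Ccl17* had the largest log2 fold change of the list (1.08, adjusted p = 0.516 in limma). Its groups overlapped, at 16.0 and 4.58 FPKM without 7KC, and 26.8 and 14.2 FPKM with 7KC. *Arg1*, which encodes arginase 1, had 5.83 and 7.08 FPKM without 7KC, and 3.59 and 2.49 FPKM with 7KC, with a log2 fold change of -0.89 (SE 0.18, adjusted p = 0.352 in limma). *Chil3*, a chitinase-like gene of macrophages, had 1.17 and 1.77 FPKM against 0.684 and 0.891 FPKM. *Socs1*, an inhibitor of JAK kinases that interferons and IL-6 also induce, had 9.71 and 5.94 FPKM against 13.8 and 14.0 FPKM (log2 fold change 0.79, adjusted p = 0.356 in limma). The gene higher without overlap (*Socs1*) and the 2 lower (*Arg1* and *Chil3*) had unadjusted p-values of 0.0186, 0.00537 and 0.0413 in limma. Thus 1 of the 15 genes was called higher and 2 lower, against 7.5% and 5.47% of all genes tested.

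The last list held 6 genes of other alarmins and damage-associated signals, with a median log2 fold change of 0.56. Without overlap, 3 genes were higher and 1 lower, against 23.9% and 22.9% of all genes tested. *Areg* (log2 fold change 0.24) and *Hmgb1* (0.03) overlapped between the groups. *Il1a*, which encodes a preformed keratinocyte cytokine of the IL-1 family, had 50.6 and 33.9 FPKM without 7KC, and 62.7 and 94.1 FPKM with 7KC (log2 fold change 0.88, adjusted p = 0.365 in limma). As with *Il33*, 7KC-IMQ replicate 2 was the highest library and Cont-IMQ replicate 2 the lowest. *Il18*, another IL-1 family cytokine, lay the other way, at 76.8 and 53.1 FPKM against 46.9 and 42.6 FPKM (log2 fold change -0.51, adjusted p = 0.381 in limma). *S100a8* and *S100a9*, whose products form calprotectin, had the largest log2 fold changes of the 46 genes tested. *S100a8* had 1267 and 1037 FPKM without 7KC, and 3608 and 6775 FPKM with 7KC (log2 fold change 2.11, adjusted p = 0.352 in limma). Which cells of the bulk skin held these transcripts was not tested, and none of the 13 marker lists was of neutrophils.

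**Figure D3:**
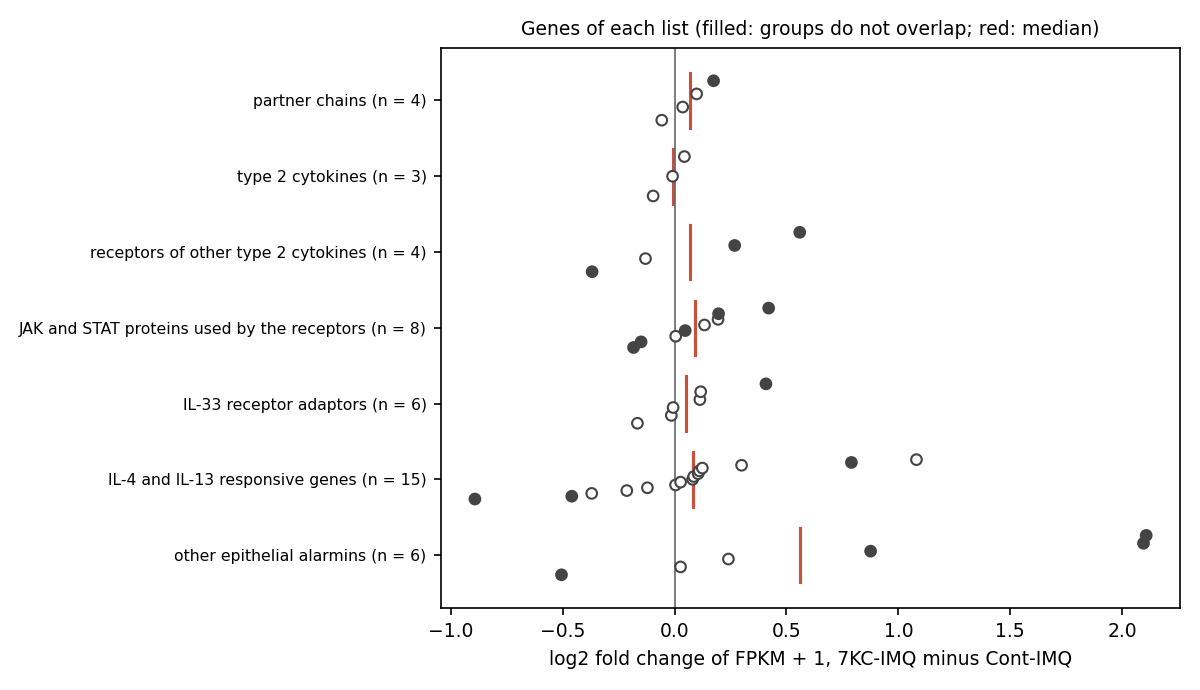
Log2 fold change of FPKM + 1 (7KC-IMQ minus Cont-IMQ) of the 46 tested genes of the 7 pathway lists, 1 circle per gene, filled where the groups do not overlap, with a red line at the median of each list. The medians of 6 lists lie within 0.1 of 0, and that of the list labelled other epithelial alarmins lies at 0.56.

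Marker genes gave the setting of these values. Keratinocyte genes were abundant, as the label of dorsal skin requires, with *Krt14* from 4132 to 5700 FPKM and *Krt10* from 4597 to 8444 FPKM, and *Acta1* of skeletal muscle (2106 to 3133 FPKM) was abundant as well. The summed level of 5 basal keratinocyte genes was 7841 and 7011 FPKM without 7KC, and 7870 and 8685 FPKM with 7KC, of which *Krt14* alone made the larger part, while *Krt15* was lower without overlap (216 and 172 FPKM against 123 and 96.9 FPKM). Keratinocytes express *Il33*, *Tslp* and *Il4ra*, and the part of this difference in their levels was not tested. Endothelial genes summed to 53.1 and 58.6 FPKM against 44.3 and 42.4 FPKM. Of these, 5 of 6 were lower without overlap, against 22.9% of all genes tested. Those of fibroblasts (3406 and 2446 FPKM against 3178 and 2788 FPKM), dendritic and Langerhans cells (963 and 690 FPKM against 955 and 722 FPKM), adipocytes (973 and 1412 FPKM against 1394 and 951 FPKM) and suprabasal keratinocytes (16420 and 9328 FPKM against 10900 and 12070 FPKM) overlapped. Macrophage genes summed to 135 and 160 FPKM against 123 and 135 FPKM, and skeletal muscle genes to 7090 and 7007 FPKM against 5756 and 6906 FPKM. Markers of eosinophils, cells that type 2 inflammation recruits, were at or near 0, with *Epx* and *Prg2* listed at 0 in every library and a sum of at most 0.218 FPKM, and 3 basophil genes summed to 1.25 FPKM or less.

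**Figure D4:**
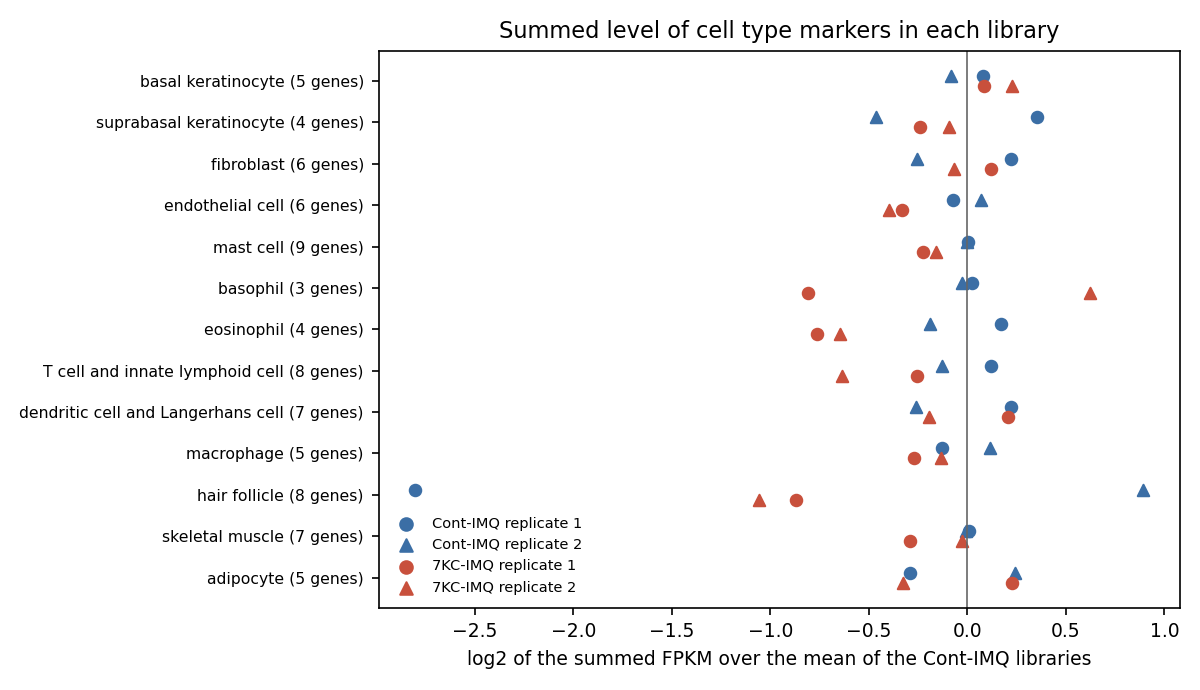
Summed FPKM of each marker list in each library, as log2 of its ratio to the mean of the Cont-IMQ libraries (blue, Cont-IMQ, red, 7KC-IMQ, circles replicate 1, triangles replicate 2). Hair follicle genes spread most within a group, from 107.7 to 1397 FPKM in the Cont-IMQ libraries.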

How the data were processed

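Total RNA of dorsal skin was sequenced in 4 libraries (TruSeq stranded mRNA kit), and nothing in the labels says whether a library was of 1 mouse, so that p-values measure the spread between these libraries. Single-end reads of 75 bases had been mapped to mm10 by the authors, who deposited FPKM values in 1 file per library, and the sources used here give no strand setting or annotation for them. The submitters' processing notes name TopHat2 2.1.1, Bowtie2 2.2.8, SAMtools 0.1.18 and Cuffdiff 2.2.1. The files hold FPKM without counts, so no count model was fitted, and a value of exactly 0 can be a failed estimate.

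FPKM values were taken as deposited and transformed to log2(FPKM + 1), which understates changes of low genes. The 15896 genes with a mean of at least 0.1 FPKM were compared by limma 3.58.1 in R 4.3.3 (lmFit, eBayes with a mean-variance trend, two-sided, Benjamini-Hochberg adjustment), and the procedure was tested on simulated data. All 8 genes passed this filter. Depth was estimated as 15000000 to 16290000 mapped reads, from the low values of genes with 1 annotated transcript (74.3% to 77.7% within 0.1 of a whole read, against 20.0% by chance). Estimated reads cover counting error only. Coordinates and transcript lengths were from GENCODE release M21.

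The 8 genes and the lists were chosen with earlier results of these data known. The text names all 8 genes, *Il7r*, *Il1rap*, *Il2rg*, *Il4* and *Il13*, up to 4 genes per pathway list with the largest difference among those with a mean of at least 1 FPKM and no overlap, the most abundant gene of a marker list, and the 3 genes nearest in pattern to *Tslp* and *Il33*. Other genes named, such as *Stat6*, *Krt15*, *Rora*, *Epx*, *Prg2* and *Hdc*, were chosen after their values were seen. Alternatives were another pseudocount, other filters, other scalings, a constant prior variance, a block for the replicate number, and leaving out each library.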

Additional observations from a re-analysis of the deposited data

How the results depend on the processing

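With another scaling, filter, pseudocount or variance model, none of the 8 genes passed an adjusted p-value of 0.05 in limma, and *Il33*, *Il4ra*, *Il13ra1*, *Il13ra2* and *Crlf2* stayed higher in the 7KC-IMQ group under every alternative, leaving out a library included. The log2 fold change of *Il1rl1* was 0.00601 after quantile normalization, and leaving out 1 library gave values from -0.173 to 0.0727. In the same way *Tslp* gave -0.114 (without Cont-IMQ replicate 1) to 0.776, and *Il7* gave -0.0200 (without 7KC-IMQ replicate 1) to 0.0959. Of the 8 genes, 4 were higher without overlap after scaling to the same sum of FPKM (*Crlf2* overlapped) and 6 after quantile normalization (*Il7* was added). Genes past the adjusted threshold numbered 2 with the pseudocount of 0.1, 71 with no filter and between 1 and 9 with a library left out (9 without Cont-IMQ replicate 1), against 1. With the same sum of FPKM, 638 genes were higher and 1229 lower at an unadjusted p-value, against 1192 and 869. Higher genes numbered from 333 (without 7KC-IMQ replicate 2) to 1190 with a library left out, and lower genes from 282 (without 7KC-IMQ replicate 2) to 1141. At an unadjusted p-value, *Il4ra* was called under every alternative run, *Il33* and *Il13ra2* lost the call as given above, and *Tslp* without Cont-IMQ replicate 2 (0.00306) and *Il13ra1* without Cont-IMQ replicate 1 (0.0276) gained it. Of the pathway list genes, 4 to 11 were higher and 1 to 5 lower with a library left out, and 11 were lower without overlap with the same sum of FPKM, against 6. The cause was not tested. With the replicate number as a block, 978 genes were higher and 776 lower at an unadjusted p-value, 1 passed the adjusted threshold, and no call on the 8 genes changed (*Il4ra*, adjusted p = 0.401). Deviations of same-numbered libraries correlated at 0.0651 over genes, and the labels give no litter, batch or day that a number would share. Levels of *Il7* and *Il1rl1* are limited by depth.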

Other observations

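Within the mast cell list of 9 genes, 1 was higher and 3 were lower without overlap, against 23.9% and 22.9% of all genes tested. The higher gene was *Hdc*, which encodes the histamine-forming enzyme histidine decarboxylase and is made by neutrophils and macrophages as well. It had 3.61 and 4.15 FPKM without 7KC, and 6.55 and 6.30 FPKM with 7KC, a log2 fold change of 0.61 on the log2(FPKM + 1) scale. The mast cell proteases *Cma1* (26.3 and 28.5 FPKM against 20.2 and 22.4 FPKM) and *Tpsb2* (19.4 and 20.9 FPKM against 14.5 and 16.1 FPKM) lay the other way without overlap. So did *Cpa3*, by a narrow gap (14.2 and 15.9 FPKM against 13.3 and 14.1 FPKM). *Mcpt4*, the most abundant gene of the list, overlapped (44.1 and 35.1 FPKM against 36.8 and 36.6 FPKM). None of these genes passed an adjusted p-value of 0.05 in limma, and all were singled out after their values were seen.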
